A study of Mus musculus with 12 samples.

Results

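The MAP kinase phosphatases are dual specificity phosphatases that switch off MAP kinases by removing phosphate from both the threonine and the tyrosine of the activation loop. The RNA of 9 of these genes, Dusp1, Dusp2, Dusp3, Dusp4, Dusp5, Dusp6, Dusp7, Dusp10 and Dusp16, was examined in neutrophils from the bone marrow (BM) and the peritoneum (PT) of mice with thioglycollate-induced peritonitis. Members were taken by gene symbol. All 9 were found among the 28987 genes of the deposited table, and all 9 reached 1 TPM in 3 or more libraries, the condition for testing that 13456 genes met. TPM gives the abundance of a transcript as a share of its library, corrected for transcript length, so TPM levels can be compared between genes.

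There were 12 libraries, 3 for each combination of tissue (BM or PT) and genotype (WT or Bcl2). All mice were on the FVB strain, and their age was not given in the sources used here. All groups, marrow included, came from mice injected with 2 mL thioglycollate, with collection 6 h later by the labels, whereas the methods of the study name other times. WT mice carried no transgene. Bcl2 mice (MRP8-Bcl2) express human Bcl-2, an inhibitor of apoptosis, from human MRP8 regulatory regions, which are active in the myeloid lineage, and so the Bcl2 groups of both tissues carry the transgene. Cells were sorted into Trizol and their cDNA was amplified before sequencing. A library is named here by the number in its deposited column name: 4, 5 and 6 are BM WT, 10, 11 and 12 are PT WT, 1, 2 and 3 are BM Bcl2, and 7, 8 and 9 are PT Bcl2. The columns carry no mouse number, so p-values measure the spread between libraries, and marrow and peritoneum of the same mouse could not be matched.

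Several facts of the libraries bear on every value. Mouse Bcl2 RNA, onto which reads of the transgene can fall, was 58.6 to 333 TPM in 5 of the 6 Bcl2 libraries and 0.219 to 2.37 TPM in the WT libraries, but 0.695 TPM in library 9, labelled PT Bcl2. The changes in Bcl2 mice are therefore also given without library 9. The labels give macrophages as the source cells and the design text gives neutrophils. The summed TPM of 8 neutrophil markers was 76740 to 350700 in marrow and 14410 to 67690 in peritoneum, without overlap, and that of 10 macrophage markers was 17.7 to 169 over all libraries. Most of the neutrophil sum was S100a8 and S100a9 in every library, both lower in peritoneum without overlap. The 8 markers did not move together. Csf3r was higher in peritoneum without overlap, at 132 to 1038 TPM in marrow and 1839 to 4569 TPM in peritoneum. Cxcr2 overlapped, at 212 to 1864 and 1290 to 3914 TPM. Ly6g overlapped too, at 51.5 to 1266 TPM in marrow and 0 to 125.6 TPM in peritoneum, as did Retnlg, Mmp8 and Mmp9. Immature neutrophil markers summed to 16720 to 45180 TPM in marrow and to 346 to 1171 TPM in peritoneum, and B cell markers to 32.9 to 268 and 239 to 1433 TPM. Homopolymer genes, the 108 genes whose transcripts hold an unbroken stretch of 31 or more A or T, held 8.9 to 24.1% of the TPM in marrow, 50.8 to 65.6% in 4 peritoneal libraries, and 15.5 and 20.0% in peritoneal libraries 7 and 12. The part of these differences in the results was not tested. In bulk RNA, fewer cells of a type and less RNA per cell cannot be told apart.

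MAP kinases carry signals from growth factor, cytokine and microbial receptors to transcription, along the ERK, JNK and p38 branches. Many of the phosphatases are themselves induced when the kinases are active and so form a negative feedback loop. In neutrophils and other myeloid cells the p38 and ERK branches act in cytokine production, migration and survival, and Dusp1 is known as a brake on inflammatory cytokine production. Dusp1, Dusp2, Dusp4 and Dusp5 encode nuclear enzymes. Of these, Dusp1 acts mainly on p38 and JNK and Dusp5 on ERK. Dusp6 and Dusp7 encode cytoplasmic enzymes that act on ERK, and Dusp10 and Dusp16 encode enzymes that act on JNK and p38. Dusp3 encodes a small enzyme that lacks the kinase-binding domain of the others.

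The promoters of Dusp1 and Dusp5 are shown because these were the members with called changes between marrow and peritoneum. Both are from the RefSeq promoter table, build GRCm38.p6, which held 8 of the 9 members, all but Dusp4, and each is printed 5′ to 3′ on the strand of its gene, trimmed so that it holds no annotated exon base. The Dusp1 stretch is chr17:26508520-26508722, minus strand. It lies inside the annotated gene, whose longest form starts further upstream, and it ends short of the RefSeq start from which positions are counted. The Dusp5 stretch is chr19:53528895-53529108, plus strand. Capitals mark the cAMP response element (CRE) TGACGTCA and its half-site TGACG, read on either strand, and, in Dusp5, also the CArG box, the sequence bound by serum response factor.
Dusp1 promoter: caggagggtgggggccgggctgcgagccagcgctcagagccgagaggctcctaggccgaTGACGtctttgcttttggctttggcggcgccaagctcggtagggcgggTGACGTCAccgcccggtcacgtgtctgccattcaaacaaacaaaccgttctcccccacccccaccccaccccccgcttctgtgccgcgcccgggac
Dusp5 promoter: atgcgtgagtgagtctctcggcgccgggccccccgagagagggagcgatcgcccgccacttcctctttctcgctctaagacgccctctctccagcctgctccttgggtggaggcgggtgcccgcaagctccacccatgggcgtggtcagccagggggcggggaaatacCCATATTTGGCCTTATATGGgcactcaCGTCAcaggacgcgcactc

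The Dusp1 stretch held 1 full CRE, at −143 to −136 from the RefSeq start, which overlaps 2 half-site matches, and 1 separate half-site at −191 to −187. The Dusp5 stretch held 2 adjoining CArG boxes, at −82 to −73 and −72 to −63, and a CRE half-site at −55 to −51. Among all 32851 RefSeq promoter windows, searched on both strands, 1.79% held the CRE, 1.63% a CArG box and 20.8% the half-site. Of the 8 members matched, the CRE was found only in Dusp1 and the CArG box only in Dusp5, and the half-site was found in 4 members (Dusp1, Dusp2, Dusp5 and Dusp16). CCAAT was found in 5 members, in Dusp3, Dusp6, Dusp7, Dusp10 and Dusp16, against 37.4% of all windows. The AP-1 site TGACTCA (5.2% of windows), the NF-kB site (8.46%) and TATAAA (13.6%) were found in 0 of the 8. A match describes these letters in this window and was not tested as a binding site.

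Dusp1 held most of the phosphatase RNA. It was the highest of the 9 genes in 12 of 12 libraries, and within each group its lowest library lay above the highest library of every other member. In WT mice its share of the summed TPM of the 9 genes was 56.2 to 88.9% in marrow and 78.1 to 95.8% in peritoneum. In Bcl2 mice the share was 61.1 to 91.1% in marrow and 95 to 96.6% in peritoneum. Ranked by TPM among all tested genes, Dusp1 stood between 109th and 1315th in the marrow libraries and between 14th and 22nd in the peritoneal libraries.

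**Figure D1:**
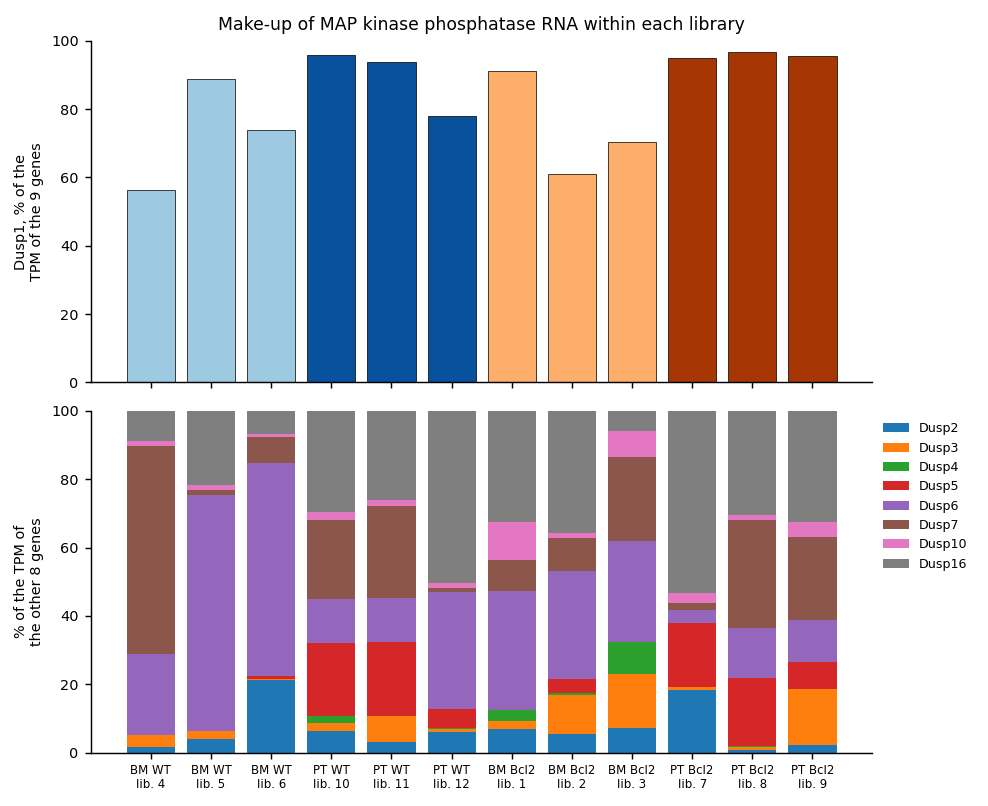
The upper panel plots, for each of the 12 libraries, the percent of the summed TPM of the 9 phosphatase genes that was Dusp1, and the lower panel the percent of the TPM of the other 8 genes held by each. Dusp1 held 56.2 to 91.1% in marrow and 78.1 to 96.6% in peritoneum, and Dusp6 or Dusp7 led the other 8 in 5 of 6 marrow libraries, Dusp16 or Dusp7 in all 6 peritoneal ones.

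Among the other members, Dusp6 stood second by mean log2(TPM + 1) in both marrow groups, and Dusp16 second in both peritoneal groups. Dusp6 was the largest of the other 8 in 4 of the 6 marrow libraries, where it held 29.6 to 69.2% of their TPM. Dusp16 was the largest of the other 8 in 4 of the 6 peritoneal libraries, with 29.6 to 53.3%, and Dusp7 in the remaining 2. Below Dusp1 the order was loose: of the 8 pairs of neighbours in the order of levels, the ranges of the 3 libraries overlapped in 6 pairs in marrow and 7 in peritoneum of WT mice, and in 7 and 6 pairs of Bcl2 mice. Apart from the step below Dusp1, neighbours were separate only between Dusp10 and Dusp5 in BM WT and between Dusp10 and Dusp4 in PT Bcl2.

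The comparison of peritoneum with marrow asks which genes differ between neutrophils at the inflamed site and those still in the marrow. Dusp1 and Dusp5, both encoding nuclear phosphatases, were higher in peritoneum in both genotypes, and no member was called lower in either. A gene was called where limma gave a Benjamini-Hochberg adjusted p under 0.05 over all tested genes and the change was at least 2-fold. In WT mice 2 members were called higher and 0 lower, where 1.59% of all tested genes were called higher and 1.22% lower. In Bcl2 mice 2 were called higher and 0 lower, where 2.31% of all tested genes were called higher and 19.1% lower. Higher calls in both genotypes were made for 0.855% of tested genes. At an unadjusted p under 0.05 and 2-fold, 4 members were higher in WT (10.2% of all genes were higher by that rule) and 3 in Bcl2 mice (4.53%). Without library 9 the same 2 members were called in each genotype, and the shares over all tested genes were not counted in that fit.

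The 9 fitted differences were all positive in WT, with a median of 1.72 on the log2 scale, beside a median of 0.22 and 57.6% positive over all tested genes. In Bcl2 mice 7 of 9 were positive, with a median of 0.78, beside −1.02 and 25.7%. Dusp4 was at 0 in every BM WT library, and the WT median of the other 8 was also 1.72. These medians moved with the scaling. With each library centred on its median, the members' medians in WT and Bcl2 mice were 1.51 and 2.37 and those of all genes 0.00 and 0.57. With quantile normalization they were 1.45 and 1.85 beside 0.04 and 0.00, and with the homopolymer genes left out they were 2.25 and 1.31 beside 0.62 and −0.53. Over all genes the calls, 214 higher and 164 lower in WT and 311 higher and 2567 lower in Bcl2, became 112 and 197 in WT and 1636 and 467 in Bcl2 with the centring. They were 233 and 264 in WT and 678 and 779 in Bcl2 with quantile normalization, and 479 and 113 and 565 and 1077 without the homopolymer genes.

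**Figure D2:**
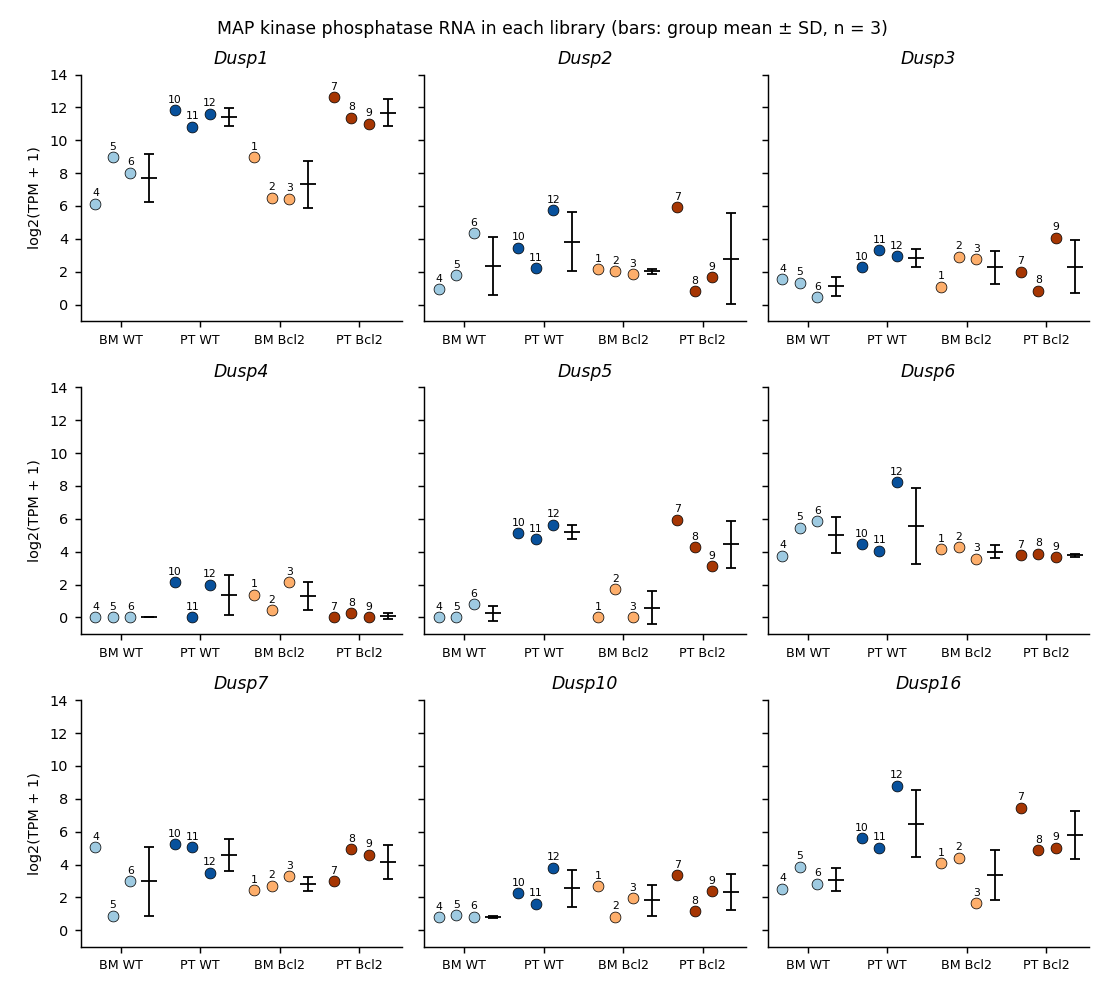
Each panel plots log2(TPM + 1) of 1 gene in the 12 libraries, with points numbered by library, and bars at the group mean ± SD (n = 3). Dusp1 and Dusp5 sit higher in every PT library than in any BM library, as does Dusp16 within each genotype, while the points of Dusp2, Dusp6 and Dusp7 overlap between tissues.

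Dusp1 (ENSMUSG00000024190), on chromosome 17 (26505590 to 26562128, minus strand, GRCm38), was expressed in every library. In BM WT it was 68.8, 501 and 259.6 TPM in libraries 4, 5 and 6, and in PT WT 3636, 1812 and 3147 TPM in libraries 10, 11 and 12. In BM Bcl2 it was 502, 90.0 and 86.6 TPM in libraries 1, 2 and 3, and in PT Bcl2 6240, 2644 and 2082 TPM in libraries 7, 8 and 9. The lowest peritoneal library lay above the highest marrow library, whichever the genotype, and library 7 stood highest of all. In each marrow group the 3 libraries spread widely, with library 4 the lowest in BM WT and library 1 far above the others in BM Bcl2.

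The log2 fold change of Dusp1, on the log2(TPM + 1) scale, was 3.72 in WT (SE 0.77, 95% interval 2.08 to 5.36, limma adjusted p = 0.0187). In Bcl2 mice it was 4.35 (SE 0.77, 2.71 to 6.00, adjusted p = 0.00259), and 4.68 without library 9 (adjusted p = 0.00477). The WT call was lost without library 4 (2.93, adjusted p = 0.0796), without library 10 (3.51, 0.0849) and without library 12 (3.62, 0.0598). It was also lost when low genes were not removed (adjusted p = 0.0585) and with the libraries centred on their medians (0.0688), while the Bcl2 call was kept in all 12 fits that leave out 1 library and all 9 other settings. With the homopolymer genes left out of the TPM, Dusp1 was 3931 to 7390 TPM in the 6 peritoneal libraries and 90.7 to 640.3 TPM in the marrow libraries. Exons of Dusp1 overlap those of Ergic1 on the opposite strand, and whether the counting used strand is not given in the sources used here. Ergic1, named for this overlap, was 4.04 to 38.7 TPM in marrow and 40.2 to 112 TPM in peritoneum, so it too was higher in peritoneum without overlap. Its highest library in BM Bcl2 was 38.7 TPM, where the lowest Dusp1 library was 86.6 TPM. The part of this overlap in the Dusp1 values was not tested.

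Dusp5 (ENSMUSG00000034765), on chromosome 19 (53529109 to 53542431, plus strand), was at or near 0 in every marrow library. It was listed at 0 in BM WT libraries 4 and 5 and was 0.731 TPM in library 6, worth about 5 reads by the estimated value of 1 read. In PT WT it was 34.4, 26.2 and 49.1 TPM in libraries 10, 11 and 12. It was listed at 0 in BM Bcl2 libraries 1 and 3 and was 2.31 TPM, about 6 reads, in library 2. In PT Bcl2 it was 60.5, 18.6 and 7.68 TPM in libraries 7, 8 and 9. No peritoneal library overlapped a marrow library, and library 9, whose Bcl2 level matched WT, was the lowest of the 6. At these depths 3 reads of Dusp5 would be worth 0.442 to 1.64 TPM in a marrow library, so a level under that could be missed. This limit covers counting error only.

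The log2 fold change of Dusp5 was 4.92 in WT (SE 0.83, 95% interval 3.16 to 6.68, limma adjusted p = 0.00599) and 3.88 in Bcl2 mice (SE 0.83, 2.12 to 5.64, adjusted p = 0.0065). With marrow libraries at 0 this value depends on the pseudocount, and with 0.1 in place of 1 it was 7.45 and 6.16. Both calls were kept in all 12 fits that leave out 1 library and in all 9 other settings, with a Bcl2 value of 4.54 without library 9. With the homopolymer genes left out, Dusp5 was 69.9, 57.3 and 61.4 TPM in the PT WT libraries and 71.6, 46.7 and 22.3 TPM in the PT Bcl2 libraries. The only gene annotated over Dusp5 exons, AC137853.2 on the opposite strand, is not in the table.

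**Figure D3:**
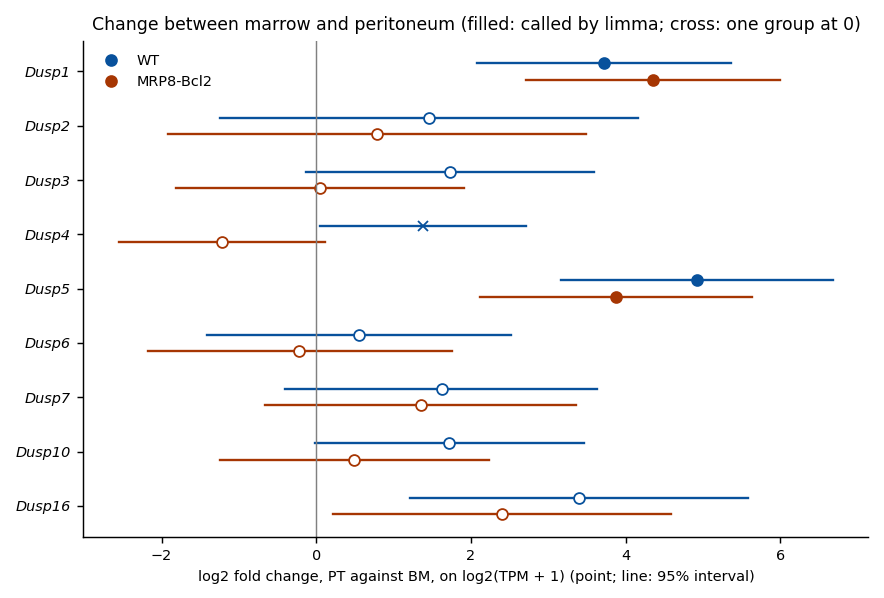
The plot gives the log2 fold change of each gene between PT and BM on the log2(TPM + 1) scale, with its 95% interval, for WT (blue) and MRP8-Bcl2 mice (orange). Filled points mark the calls, Dusp1 and Dusp5 in both genotypes, and the cross marks Dusp4 in WT, where BM was at 0 in all 3 libraries.

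Among the nuclear phosphatases that were not called, Dusp2, which is enriched in haematopoietic cells, was 0.930, 2.44 and 19.4 TPM in BM WT libraries 4, 5 and 6 and 10.1, 3.69 and 53.3 TPM in PT WT libraries 10, 11 and 12. In BM Bcl2 it was 2.63 to 3.42 TPM, and in PT Bcl2 60.2, 0.750 and 2.17 TPM in libraries 7, 8 and 9. The tissues overlapped in both genotypes, with libraries 7 and 12 far above the others, and the log2 fold changes were 1.46 (SE 1.27, adjusted p = 0.615) and 0.78 (SE 1.27, adjusted p = 0.68). The WT value was 0.49 without library 12, 0.75 without library 4, 2.25 without library 11 and 2.45 without library 6, and the Bcl2 value 1.35 without library 9. Dusp4 was listed at 0 in all 3 BM WT libraries, where 3 reads would be worth 0.394 to 1.36 TPM. In PT WT it was 3.47, 0 and 2.98 TPM in libraries 10, 11 and 12, about 33, 0 and 23 reads. In BM Bcl2 it was 1.61, 0.343 and 3.38 TPM, about 6, 1 and 7 reads, and in PT Bcl2 it was at 0 in libraries 7 and 9 and 0.205 TPM, about 1 read, in library 8. The values in Bcl2 mice did not overlap and were lower in peritoneum, but most rest on few reads and the difference was not called (−1.22, adjusted p = 0.167, and −1.18, adjusted p = 0.264, without library 9).

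The cytoplasmic ERK phosphatases showed no called change. Dusp6 was 12.6, 43.3 and 56.9 TPM in BM WT libraries 4, 5 and 6 and 20.9, 15.6 and 301.5 TPM in PT WT libraries 10, 11 and 12. It was 10.9 to 18.1 TPM in BM Bcl2 and 11.7 to 13.8 TPM in PT Bcl2, so that library 12 stood alone and the other 11 lay between 10.9 and 56.9 TPM. The log2 fold changes were 0.55 in WT (SE 0.92, 95% interval −1.41 to 2.52), −0.78 without library 12, and −0.22 in Bcl2 mice (SE 0.92, −2.18 to 1.75), −0.16 without library 9. Dusp7 was 32.7, 0.848 and 6.98 TPM in BM WT and 37.1, 32.1 and 10.3 TPM in PT WT, and 4.49 to 8.94 TPM in BM Bcl2 and 6.92, 29.5 and 23.5 TPM in PT Bcl2. Both genotypes overlapped between tissues (log2 fold changes 1.62 and 1.35, SE 0.95 each, adjusted p = 0.419 and 0.316), and the Bcl2 difference was called with the libraries centred on their medians (2.94, adjusted p = 0.0457). The WT value was 2.66 without library 4 and 0.57 without library 5, and the Bcl2 value 1.13 without library 9.

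The JNK and p38 phosphatases Dusp10 and Dusp16 lay higher in peritoneum in WT without overlap, and neither was called. Dusp16 was 4.78, 13.6 and 6.17 TPM in BM WT libraries 4, 5 and 6 and 47.8, 31.4 and 444.5 TPM in PT WT libraries 10, 11 and 12. In BM Bcl2 it was 15.9, 20.5 and 2.13 TPM in libraries 1, 2 and 3, and in PT Bcl2 174.7, 28.5 and 31.4 TPM in libraries 7, 8 and 9. The groups did not overlap in either genotype, and libraries 12 and 7 lay far above the other peritoneal libraries. The log2 fold change was 3.40 in WT (SE 1.02, 95% interval 1.21 to 5.58, limma adjusted p = 0.0939) and 2.40 in Bcl2 mice (SE 1.02, 0.22 to 4.59, adjusted p = 0.103, and 2.79 without library 9). It was 2.23 in WT without library 12 and 1.57 in Bcl2 without library 7. With the homopolymer genes left out, Dusp16 was called in both genotypes (3.94, adjusted p = 0.0252, and 3.19, adjusted p = 0.0362), and in Bcl2 mice also with the centring (3.99) and with quantile normalization (3.08).

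Dusp10 was 0.742 to 0.877 TPM in BM WT, about 2 to 6 reads a library, and 3.77, 2.09 and 13.1 TPM in PT WT libraries 10, 11 and 12 (log2 fold change 1.72, SE 0.82, adjusted p = 0.308). In BM Bcl2 it was 5.5, 0.762 and 2.85 TPM and in PT Bcl2 9.35, 1.26 and 4.19 TPM, which overlapped (0.49, SE 0.82, adjusted p = 0.692, and 0.45 without library 9). Dusp3, the small enzyme, was 0.375 to 1.90 TPM in BM WT and 3.79 to 9.01 TPM in PT WT, without overlap (1.73, SE 0.87, adjusted p = 0.339). In Bcl2 mice it was 1.13 to 6.53 TPM in BM and 3.03, 0.806 and 15.8 TPM in PT libraries 7, 8 and 9 (0.05, SE 0.87, 95% interval −1.81 to 1.91, and −0.83 without library 9).

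By overlap alone, 5 members (Dusp1, Dusp3, Dusp5, Dusp10 and Dusp16) were higher without overlap in PT WT, where 14.9% of all tested genes were, and 0 were lower, where 7.97% were. In Bcl2 mice 3 were higher (Dusp1, Dusp5 and Dusp16), beside 5.18% of all genes, and 1 (Dusp4) was lower, beside 32.6%. Those 3 were higher without overlap in both genotypes, which held for 3.28% of tested genes.

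Within the peritoneum, libraries 7 and 12 held the highest values of Dusp2, Dusp5, Dusp10 and Dusp16 and the lowest values of Dusp7. The other members, Dusp1, Dusp3, Dusp4 and Dusp6, followed neither pattern. Libraries 7 and 12 had the low homopolymer shares given above. Their sums of neutrophil markers were the highest in the peritoneum (67690 and 53860 TPM against 14410 to 34080), and most of each sum was S100a8 and S100a9. Of the list, S100a8, S100a9, Cxcr2 and Retnlg were highest in libraries 7 and 12, while Csf3r, Ly6g, Mmp8 and Mmp9 were not. Ly6g was at 0 in library 12. The sums of B cell markers were also highest in libraries 7 and 12 (843 and 1433 TPM against 239 to 767). All 6 B cell markers were above 0 in each PT WT library. T cell markers summed to 174 and 75.7 TPM in libraries 7 and 12, nearly all Cd3d, with Lck at 0 in all 6 peritoneal libraries, and mast cell markers to 24.9 and 633 TPM against 1.43 to 57.8 in the other 4. Their part in the values of these phosphatases was not tested. Without the homopolymer genes, Dusp16 was 555 TPM in library 12 and 207 TPM in library 7 against 68.7 to 97.2 TPM in the other 4, and Dusp2 was 66.6 and 71.3 TPM against 1.88 to 20.5 TPM. On the same scale, libraries 7 and 12 no longer held the highest pair of values of Dusp5, where library 10 (69.9 TPM) lay above library 12 (61.4 TPM), or of Dusp10, where library 9 (12.2 TPM) lay above library 7 (11.1 TPM).

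**Figure D4:**
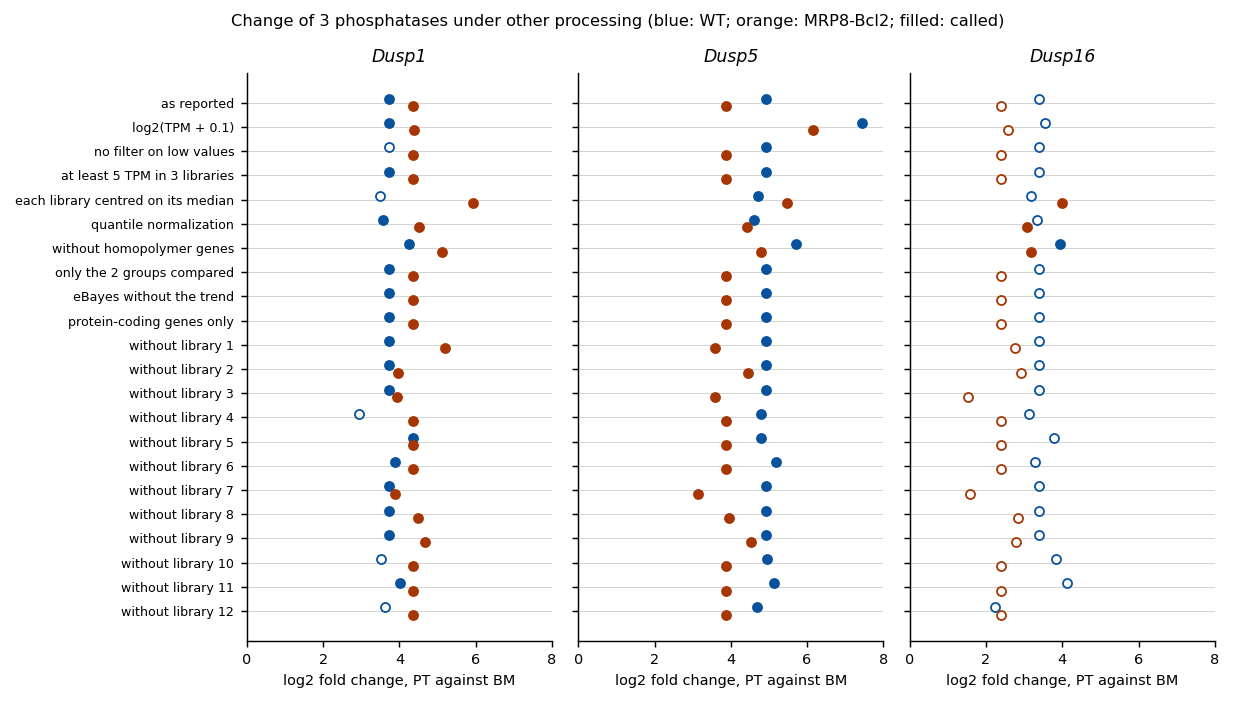
The panels plot the log2 fold change between PT and BM of Dusp1, Dusp5 and Dusp16 under each processing setting and with each library left out, for WT (blue) and MRP8-Bcl2 mice (orange), with filled points where the gene was called. Dusp5 is filled throughout, Dusp1 is open for WT in 5 settings, among them without library 4, 10 or 12, and Dusp16 is filled for both genotypes only without the homopolymer genes.

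Whether the transgene altered the phosphatases was asked by the interaction, the difference between the PT against BM change in Bcl2 mice and that in WT mice, and by Bcl2 against WT within each tissue. These comparisons share libraries with those above. No member was called for the interaction by limma, where 0.0149% of all tested genes were. The interaction was 0.64 for Dusp1 (95% interval −1.68 to 2.96, adjusted p = 0.762) and −1.05 for Dusp5 (−3.54 to 1.44, adjusted p = 0.631), intervals that reach past a 4-fold difference in at least one direction. At an unadjusted p under 0.05 there was 1 member, Dusp4 (limma adjusted p = 0.236), beside 16.9% of all tested genes. Its per-library values are those above, with BM WT at 0. Of the 9 interaction values 8 were negative and 1 positive, with a median of −0.99, beside a median of −1.18 and 17.2% positive over all tested genes. Without library 9 again 0 members were called, and 2 had an unadjusted p under 0.05, Dusp4 and Dusp3, whose value went from −1.68 to −2.56 (limma adjusted p = 0.263). Dusp1 was then 0.96 and Dusp5 −0.38. The share of all tested genes by the unadjusted rule, 16.9% with all libraries, was not counted without library 9, so these 2 cannot be set beside it.

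Within tissues, 0 members were called between genotypes in marrow (0.0223% of all tested genes) and 0 in peritoneum (0.0297%) by limma. The counts at an unadjusted p under 0.05 and 2-fold were also 0, beside 7.36% and 12.7% of all genes, and both counts were 0 in each tissue without library 9. Dusp4 was higher in BM Bcl2 than in BM WT without overlap, as were 10% of genes, and Dusp6 was lower in PT Bcl2 (11.7 to 13.8 TPM) than in PT WT (15.6 to 301.5 TPM), as were 18.8%. For Dusp6 in peritoneum the log2 fold change was −1.80 (SE 0.92, 95% interval −3.77 to 0.16, adjusted p = 0.425). For Dusp1 it was −0.40 in marrow (−2.04 to 1.24) and 0.24 in peritoneum (−1.40 to 1.88), and for Dusp5 0.31 (−1.45 to 2.07) and −0.74 (−2.50 to 1.02). Without library 9 the peritoneal values were −1.75 for Dusp6, 0.56 for Dusp1 and −0.07 for Dusp5.

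The kinases and targets around the phosphatases were described from lists of pathway genes, of which 60 were tested. Of these, 4 were called higher and 1 lower in WT, and 5 higher and 2 lower in Bcl2 mice. The shares over all tested genes were the 1.59% higher and 1.22% lower in WT and 2.31% higher and 19.1% lower in Bcl2 mice given above. Without library 9 the counts were 4 and 1 in WT and 5 and 3 in Bcl2 mice. Shares over all tested genes were not counted without library 9, here or for the lists below. Dusp8 and Dusp9, the other MAP kinase phosphatases of the lists, were too low to be tested. Of 6 atypical dual specificity phosphatases tested, Dusp11, which acts on RNA, was called in WT. Dusp11 was 56.5, 60.2 and 29.1 TPM in BM WT and 332.5, 167.4 and 445 TPM in PT WT (log2 fold change 2.63, SE 0.54, adjusted p = 0.0185), a call lost without library 4, 6, 10 or 12 and with only the groups compared in the fit. In Bcl2 mice Dusp11 overlapped between tissues, at 50.7 to 122.5 TPM in BM and 75.7 to 104 TPM in PT, with a log2 fold change of 0.19 (adjusted p = 0.819). The median of the 6 was 0.97 in WT and 0.19 in Bcl2 mice. Without Dusp19, named because it was at 0 in every PT library, the medians were 1.66 and 0.19. That WT value lies close to the 1.72 of the MAP kinase phosphatases.

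Of 9 MAP kinases tested, 1 was called, Mapk3, which encodes ERK1. Mapk3 fell in WT, from 121.4, 186.6 and 58.3 TPM in BM to 23.5, 29.5 and 12.7 TPM in PT (−2.35, SE 0.56, adjusted p = 0.0367). This call was lost without library 2, 4, 5, 10, 11 or 12, without the homopolymer genes, with only the groups compared in the fit and without the variance trend. In Bcl2 mice Mapk3 was 83.3 to 153.3 TPM in BM and 50.7 to 59.9 TPM in PT (−0.88, adjusted p = 0.267). The median of the 9 was −0.17 in WT and −0.88 in Bcl2, near the medians of all genes.

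Of 7 MAP kinase kinases, Map2k5, the activator of ERK5, was called lower in Bcl2 mice (adjusted p = 0.0225), from 2.27, 9.98 and 8.74 TPM in BM to 0 in all 3 PT libraries. The call was lost with median centring, with quantile normalization and without library 2, 3, 7 or 8. Of 10 MAP kinase kinase kinases, both called genes were of the RAF family, in Bcl2 mice. Braf rose from 53.4, 51.1 and 29.2 TPM in BM to 284, 211.9 and 118 TPM in PT (2.13, SE 0.56, adjusted p = 0.0165), a call lost only without library 3 among the fits run. Araf was 30.3, 41.7 and 77.9 TPM in BM and 16.8, 11.1 and 6.75 TPM in PT (−1.99, SE 0.68, adjusted p = 0.0495), a call at the edge of the threshold that was kept in 4 of 12 fits without 1 library and in 2 of 9 other settings, and lost without library 9 (−1.69, adjusted p = 0.129). Without library 9, Map2k2 and Map3k7, named after their values were seen, were called lower in Bcl2 mice beside Map2k5. With all libraries 19.1% of tested genes were called lower in Bcl2 mice, and the share without library 9 was not counted. None of the 10 kinases activated by MAP kinases and none of the 4 Sprouty and Spred inhibitors tested was called in either genotype.

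Of 14 immediate early genes, which are transcribed within minutes of MAP kinase activation, 3 were called higher in WT (Fosb, Jun and Atf3) and 4 in Bcl2 (Ier3, Zfp36, Atf3 and Junb), and 0 lower. Their median log2 fold change was 2.52 in WT and 1.43 in Bcl2, and 2.82 and 1.49 without the genes at 0 throughout a group, Egr3 and, in WT, Fosl1. Atf3, a stress-induced transcription factor, rose in both genotypes. In WT it lay between 0.561 and 1.28 TPM in BM and between 15.2 and 112.5 TPM in PT (4.64, SE 0.78, adjusted p = 0.00599). In Bcl2 mice it lay between 0 and 1.98 TPM in BM and between 52.8 and 129 TPM in PT (5.46, SE 0.78, adjusted p = 0.000974). Ier3 was 8.11 to 48.6 TPM in BM Bcl2 and 144 to 406 TPM in PT Bcl2 (3.92, SE 0.77, adjusted p = 0.00439), and its WT value was 2.93 (adjusted p = 0.055). Zfp36, which encodes an RNA-binding protein that speeds the decay of cytokine mRNA, was 133.3 to 371 TPM in BM Bcl2 and 841 to 1333 TPM in PT Bcl2 (2.33, SE 0.60, adjusted p = 0.0155), with a WT value of 2.26 (adjusted p = 0.0582). Junb, an AP-1 subunit, had values of 2.39 in Bcl2 (SE 0.74, adjusted p = 0.033) and 2.79 in WT (adjusted p = 0.0572). Fosb and Jun, also AP-1 subunits and named after their values were seen, had WT values of 3.16 (adjusted p = 0.0382) and 2.86 (adjusted p = 0.0349), and in Bcl2 mice −0.38 (adjusted p = 0.746) and 1.49 (adjusted p = 0.12). Of these calls, Atf3 in Bcl2 and Ier3 were kept in every fit run, and Atf3 in WT in all but that without library 10. The call of Zfp36 was lost without library 2 or 3, and that of Junb without library 2, 3, 7 or 8 and in 2 of 9 other settings. In WT, Fosb was kept in 5 of 12 fits without 1 library and Jun in 8 of 12, each in 6 of 9 other settings. Without library 9 the counts of this list were again 3 and 4. Without library 10 no gene of any list was called higher in WT.

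**Figure D5:**
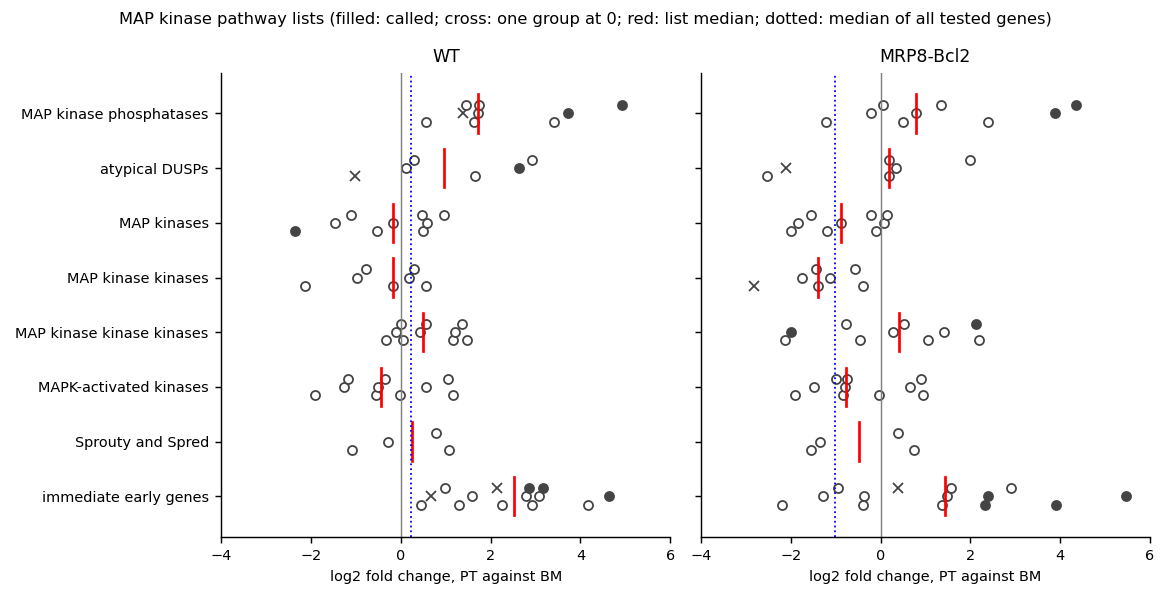
Each point is 1 tested gene of a MAP kinase pathway list, at its log2 fold change between PT and BM on the log2(TPM + 1) scale in WT (left) and MRP8-Bcl2 mice (right), with red bars at list medians, a dotted line at the median of all tested genes (0.22 and −1.02), filled points for calls, and crosses for genes at 0 in all 3 libraries of a group, among them Map2k5, called in Bcl2 mice. The MAP kinase phosphatases and the immediate early genes have the highest list medians, 1.72 and 2.52 in WT and 0.78 and 1.43 in Bcl2 mice. In WT the atypical dual specificity phosphatases follow at 0.97, and at 1.66 without Dusp19, which was at 0 in PT.

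The genes whose pattern over the 12 libraries was most like each called phosphatase were taken by the root mean square difference of log2(TPM + 1) after each gene was centred on its mean. For Dusp1 these were Ifitm1 (0.49), Steap4 (0.60) and Il1rn (0.61), beside a median of 2.68 over all tested genes. For Dusp5 they were Csf1 (0.75), Irak2 (0.79) and Cass4 (0.79), beside a median of 2.70. The spread of the members themselves on this measure was 2.23 for Dusp1 and 2.34 for Dusp5. All these values share the same 12 libraries and their depths, and are a description with no test. The PT against BM differences of the Dusp1 neighbours were 2.54 to 3.64 in WT and 3.90 to 5.28 in Bcl2, and those of the Dusp5 neighbours 3.96 to 4.66 and 3.68 to 5.60.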

How the data were processed

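Sorted cells of 12 samples, 3 in each of 4 groups, were profiled by RNA-seq. AltAnalyze with its default parameters was run on the reads by the authors, and the deposited table holds log2(TPM + 1) per gene and library. The deposited group averages are linear TPM. Aligner version, genome build and strand use are not given in the sources used here. Columns were assigned to groups by the deposited names and marker table, and they carry no replicate number. The authors' columns of fold changes and p-values were not used, nor were 2 columns of per-sample values in a table that names no sample. TPM keeps no read totals, so the even spacing of low TPM values in 5021 single-transcript genes served to estimate what 1 read is worth. Between 72.1 and 80.4% of low values lay within 0.15 of a whole number of reads. For Dusp1, 1 read was worth 0.15 to 0.699 TPM. Genes that reached 1 TPM in 3 or more libraries were tested on log2(TPM + 1), pseudocount 1, in R 4.3.3 with limma 3.58.1, using moderated statistics with a mean-variance trend and 1 fit of the 4 groups (8 residual degrees of freedom). Calls needed an adjusted p (Benjamini-Hochberg) under 0.05 and a 2-fold change, and for the interaction the adjusted p alone. The scripts were tested on simulated data. Coordinates are from GENCODE M21 (GRCm38), and promoters from RefSeq (GRCm38.p6). Named genes were the 9 members, up to 4 called genes per pathway list with the largest mean absolute change, and for each called member the 3 genes of most similar pattern. The members and lists were chosen with earlier results of these data known. Alternatives were a pseudocount of 0.1, other filters and thresholds, median centring, quantile normalization, exclusion of homopolymer genes, a fit restricted to the pair of groups, no mean-variance trend, only protein-coding genes, and each library left out.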

Additional observations from a re-analysis of the deposited data

How the results depend on the processing

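With each library left out in turn, the members called ranged from 1 to 2 in WT, with 1 (Dusp5) without library 4, 10 or 12. In WT the count was 1 with no filter on low values, 1 with median centring, 1 at an adjusted p under 0.01 and 4 at an unadjusted p. In Bcl2 mice it was 4 with median centring, and for the interaction 1 at an unadjusted p. Of the pathway genes, those called higher in WT were 11 without the homopolymer genes and 0 to 7 with a library left out (0 without library 10, 1 without library 4, 2 without library 5 and 7 without library 7). Those called lower in WT were 0 without the homopolymer genes and 0 to 1 with a library left out (0 without library 2, 4, 5, 10, 11 or 12). Those called higher in Bcl2 were 18 with median centring, 9 with quantile normalization and 10 without the homopolymer genes, with a range of 2 to 6 with a library left out (2 without library 3). Those called lower in Bcl2 were 0, 0 and 1 under the same 3 settings and 0 to 9 with a library left out (9 without library 1, 0 without library 2 or 3, and 1 without library 4, 5, 6, 7 or 11). The calls over all tested genes moved as well under these settings. In Bcl2, those higher went from 311 to 1636, 678 and 565 with centring, quantile normalization and no homopolymer genes. Those lower in Bcl2 went from 2567 to 467, 779 and 1077. In WT without the homopolymer genes, those higher went from 214 to 479 and those lower from 164 to 113. Counts over all genes were not taken with a library left out. The causes were not tested.

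Directions that turned all belonged to differences that were not called. In WT, Dusp6 ranged from −0.78 to 1.32 with a library left out, at −0.08 without library 4 and −0.78 without library 12. In Bcl2 mice the ranges were −0.78 to 1.78 for Dusp2 (−0.78 without library 7), −0.83 to 0.78 for Dusp3 (−0.53 without library 1 and −0.83 without library 9) and −0.05 to 1.05 for Dusp10 (−0.02 without library 2 and −0.05 without library 7). Dusp3 was −0.03 with a pseudocount of 0.1. Dusp4 was 0.37 with median centring, and Dusp6 was 1.37 with median centring, 0.95 with quantile normalization and 0.52 without the homopolymer genes. Dusp4 did not pass the filter of 5 TPM and has no value there.

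No paired analysis was possible because the library columns carry no replicate or mouse number. The values of Dusp5 in marrow rest on an estimated 0 to 6 reads a library, those of Dusp4 on 0 to 33 reads and those of Dusp10 in marrow on 2 to 20 reads. With 3 libraries a group the intervals are wide, so a gene that was not called can still differ.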
